A study of Mus musculus with 30 samples.

Results

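Short interspersed elements (SINEs) are short retrotransposons that RNA polymerase III transcribes from an internal promoter. They encode no protein, and their copying depends on the enzymes of L1 elements. In the mouse, B1 families descend from the 7SL RNA of the signal recognition particle, B2 families from a tRNA and ID families from the tRNA-derived BC1 RNA. B4 families join an ID part to a B1 part, and MIR families are ancient tRNA-derived elements shared with other mammals. Copies also lie inside genes, so reads of a gene's own transcript can be assigned to a SINE family.

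The SINE families were taken by name from the sperm tables, as every row named as a B1, PB1, B2, B3, B4, ID, RSINE, MIR or MamSINE family. They number 32 of 3082 features at 46 days and 33 of 16242 at 24 h, and 32 of them are in both tables. At 46 days they are 32 of 584 repeat elements, and at 24 h 33 of 634. The B1 group holds 15 families (B1 and PB1 names), the B2 group 5 (B2 and B3), the B4 group 4 (B4, B4A, RSINE1 and ID_B1) and the ID group 4. The ancient group holds 4 MIR families and, at 24 h, MamSINE1. Every member passed the filter on low counts at both times. Each value sums all copies of a family, and family lengths are not in the files, so shares of different families are not levels per length.

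C57Bl/6J males aged 3 months were injected intraperitoneally with 10 µg/kg of tesaglitazar, which activates both PPARα and PPARγ (Tesa-inj), or with the same DMSO in saline (Vehicle-inj), 2 times per week for 4 weeks. Sperm swam out of the cauda epididymis and went through somatic cell lysis. At 46 days after the last injection, total RNA depleted of rRNA was sequenced in 7 Tesa-inj libraries (numbers 1 to 5, 11 and 12) and 7 Vehicle-inj libraries (6 to 10, 13 and 14). At 24 h, polyA-selected RNA was sequenced in 4 Tesa-inj libraries (1, 3, 5 and 7) and 4 Vehicle-inj libraries (2, 4, 6 and 8). The labels do not say whether each library is a separate animal, so every p-value measures the spread between these libraries only. Library type, RNA input, sequencer and time after injection are the same split and cannot be told apart.

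The 46-day libraries held 4538101 to 13513801 counts. Their medians were 8744995 for Tesa-inj and 8189891 for Vehicle-inj. Apart from the 5 features with the most counts, Tesa-inj library 2 had 158852 counts and Vehicle-inj library 14 had 7119432. The factors of the trimmed mean of M-values (TMM), which scale libraries to each other, ran accordingly from 0.0981 in Tesa-inj library 2 to 8.15 in Vehicle-inj library 14. The 24 h libraries held 15337517 to 27709918 counts, with TMM factors from 0.771 to 1.57.

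Of 12 markers of late spermatids and sperm, 11 were in the 46-day table, Prm2 being the most abundant, with summed levels of 457 to 946 CPM in Tesa-inj and 406 to 902 CPM in Vehicle-inj. CPM is a count scaled to library size by TMM. None of the 12 leukocyte, 12 epididymal, 6 blood and 6 smooth muscle markers was in it, but that table holds more abundant features only. At 24 h all 12 sperm markers were present, with summed levels of 3841 to 12512 CPM and Odf1 the most abundant. That table also held 12 of 12 leukocyte, 6 of 12 epididymal, 4 of 6 blood and 6 of 6 smooth muscle markers. Their summed levels were 165 to 347 CPM for leukocytes (most abundant Cd74), 844 to 2396 CPM for epididymis (Crisp1), 53.5 to 270 CPM for blood (Hba-a2) and 36.3 to 102 CPM for smooth muscle (Mylk). None of the markers differed between Tesa-inj and Vehicle-inj at an unadjusted edgeR p under 0.05, where 5.3% of all features at 46 days and 2.71% at 24 h did. At 24 h all 6 smooth muscle markers were higher in Tesa-inj (median log2 fold change 0.67, smallest unadjusted edgeR p 0.0712). Mylk, the most abundant of them, was at 0.0017 only. All 4 blood markers were lower in Tesa-inj (median -0.35), while the other lists held both directions. Summed levels overlapped, at 57.0 to 102 CPM in Tesa-inj and 36.3 to 100 CPM in Vehicle-inj for smooth muscle and 64.7 to 147 CPM and 53.5 to 270 CPM for blood. In bulk RNA, fewer cells of a type and less RNA per cell cannot be told apart, and the part of other cells in the SINE values was not tested.

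The first question was how much of the sperm RNA 46 days after the last injection falls on SINE families, and whether that share differs after tesaglitazar. SINE families took 2.47% of all counts in the lowest Tesa-inj library, 3.83% at the median and 5.92% in the highest. In Vehicle-inj these values were 4.16%, 4.32% and 6.16%. Of 7 Tesa-inj libraries, 5 lay below every Vehicle-inj library, and the rest overlapped with them. The means were 4.06% ± 1.20 (SD, n = 7) for Tesa-inj and 4.68% ± 0.726 (SD, n = 7) for Vehicle-inj, a difference of -0.615 percentage points that is within the spread of the libraries. The difference was -1.33 points among libraries 1 to 10 and 1.16 points among libraries 11 to 14, so its sign was not the same in these number ranges. Among libraries 1 to 10 Tesa-inj ran from 2.47% to 4.07% and Vehicle-inj from 4.16% to 6.16%. Among libraries 11 to 14 Tesa-inj had 5.32% and 5.92% and Vehicle-inj 4.21% and 4.71%. The groups thus did not overlap within either number range. Over all libraries the difference was -0.350 points without Tesa-inj library 2 and -0.367 points without Vehicle-inj library 7. Without Tesa-inj library 12 it was -0.925 points.

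B4A, a family of the B4 group, held 79.3% of all SINE counts at 46 days. With counts pooled over the libraries it was the third most abundant of all features, with 3.37% of all counts, after Rn18s-rs5 (56.9%), an rRNA sequence, and Yam1 (17.5%). It was also the most abundant repeat element, ahead of L1Md_F2. Within the SINE counts of single libraries, B4A took between 27.9% in Vehicle-inj library 14 and 96.6% in Tesa-inj library 2. The mean was 89.5% ± 7.80 (SD, n = 7) for Tesa-inj and 70.4% ± 22.1 (SD, n = 7) for Vehicle-inj, and the groups overlapped.

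The share of B4A in all counts was 2.39% in the lowest Tesa-inj library, 3.40% at the median and 5.67% in the highest. In Vehicle-inj the same values were 1.31%, 3.43% and 4.11%. The medians thus lay close together, and B4A varied 4.32-fold over the 14 libraries. The other families, summed, took 0.0838% in the lowest Tesa-inj library, 0.316% at the median and 1.39% in the highest, against 0.300%, 0.752% and 3.40% in Vehicle-inj. They varied 40.5-fold over the libraries, with Vehicle-inj libraries 14, 10 and 7 and Tesa-inj library 11 the highest and Tesa-inj library 2 the lowest. The 0.0838% of Tesa-inj library 2 rests on 7335 counts. Its 95% Wilson interval of 0.0819% to 0.0857% covers counting error only and not the spread between libraries. The group means were 0.457% ± 0.435 (SD, n = 7) and 1.44% ± 1.11 (SD, n = 7), and the groups overlapped. Rn18s-rs5 moved the other way at the extremes, at 74.8% of counts in Tesa-inj library 2 and 8.64% in Vehicle-inj library 14, and its part in the SINE shares was not tested. As a share of the counts outside the 5 most abundant features, which include B4A, the other families took 4.60% ± 1.23 (SD, n = 7) for Tesa-inj and 6.13% ± 1.08 (SD, n = 7) for Vehicle-inj.

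**Figure D1:**
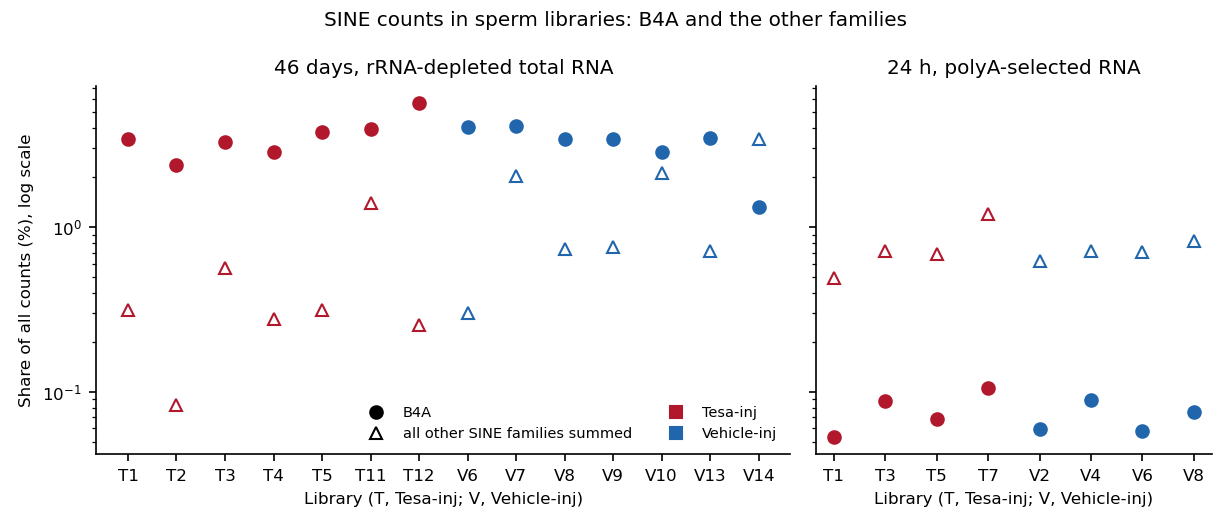
Share of all counts (percent, log axis) on B4A (filled circles) and on all other SINE families summed (open triangles), for each library of Tesa-inj (T) and Vehicle-inj (V). At 46 days B4A stays between 1.31% and 5.67% while the others run from 0.0838% to 3.40%, and at 24 h B4A lies below the others in every library.

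Among repeat element counts at 46 days, SINE families took 31.9% in the lowest Tesa-inj library, 43.0% at the median and 53.6% in the highest, against 24.4%, 38.8% and 45.8% in Vehicle-inj. The means were 43.5% ± 6.88 (SD, n = 7) and 36.3% ± 7.44 (SD, n = 7). With B4A left out of both sums the order turned, to 6.61% ± 2.73 (SD, n = 7) for Tesa-inj and 12.3% ± 4.32 (SD, n = 7) for Vehicle-inj. So the higher share in Tesa-inj was carried by B4A alone, and the groups overlapped in both versions.

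By group of families, the B4 group took 92.1% ± 5.89 (SD, n = 7) of SINE counts for Tesa-inj and 77.6% ± 16.8 (SD, n = 7) for Vehicle-inj at 46 days. The B1 group took 3.46% ± 2.44 and 9.98% ± 7.36 (SD, n = 7 and 7), and the B2 group 3.39% ± 2.61 and 9.45% ± 7.20. The ID group took 0.247% ± 0.181 and 0.672% ± 0.504, and the ancient group 0.847% ± 0.668 and 2.31% ± 1.73. All 5 groups overlapped between the treatments, and these shares mirror the share of B4A. Without B4A the composition by group of families was nearly the same in every library. B1 families then took 31.5% to 35.1% of SINE counts over the 14 libraries, B2 families 30.3% to 33.2%, B4 families 24.1% to 25.1%, ID families 2.17% to 2.73% and ancient families 7.59% to 8.50%. Tesa-inj and Vehicle-inj means were 33.3% and 33.8% for B1, 31.9% and 31.6% for B2, 24.5% and 24.6% for B4, 2.37% and 2.28% for ID and 7.95% and 7.80% for the ancient families.

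The proportions of single families varied to different degrees. B3, the largest family after B4A, took 13.4% to 14.4% of the SINE counts outside B4A, and MIRb 2.90% to 3.36%. B1_Mus1, the largest B1 family, took 3.93% in Tesa-inj library 12, its lowest value, and 5.31% in Tesa-inj library 2, its highest. The coefficient of variation of these proportions over the 14 libraries had a median of 6.53% over 31 families. The most variable were ID with 18.8%, ID2 with 15.2% and B2_Mm1a with 14.6%, and ID is among the families with the fewest counts.

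The same 46-day libraries were then tested for each family's level with the quasi-likelihood test of edgeR, fitted on 2866 features, with Benjamini-Hochberg adjustment over all of them. None of the 32 SINE families passed an adjusted p of 0.05, and the share of all features that passed was 0%. At an unadjusted p under 0.05 there was 1 family, B4A, against 5.3% of all features and 3% of repeat elements. The exact test of edgeR, DESeq2 and limma voom also passed 0 families after adjustment, and each had 1 at an unadjusted p under 0.05. Of all 2866 features, the exact test passed 14, DESeq2 0 and limma voom 0. In the same order, 190, 135 and 165 features had an unadjusted p under 0.05. The count of SINE families at an unadjusted edgeR p under 0.05 was 9 with library totals and 13 with total repeat element counts, all lower in Tesa-inj, where 148 and 281 of 567 repeat elements reached it. It was 1 with TMM over repeat elements alone. It was 0 without Tesa-inj library 2, 4, 5 or 12, without Vehicle-inj library 7, 8, 9, 10, 13 or 14, and among libraries 1 to 10 alone. In these runs 6 to 39 repeat elements and 73 to 207 of all features reached that p.

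B4A stood at 8119 CPM after TMM in the lowest Tesa-inj library, 81137 CPM at the median and 243729 CPM in the highest. In Vehicle-inj it stood at 1611, 31554 and 72320 CPM. The 4 Tesa-inj libraries numbered 2, 4, 5 and 12 were above every Vehicle-inj library, and the other 3 lay within the range of Vehicle-inj. The log2 fold change was 1.70 (SE 0.79), with an unadjusted edgeR p of 0.0465 and a Benjamini-Hochberg adjusted p of 0.903. It was 1.27 without Tesa-inj library 2 and 2.10 without Vehicle-inj library 6. With a term for libraries 11 to 14 it was 1.74, and among libraries 1 to 10 alone 1.50. Scaled to library totals in place of TMM, the B4A difference was 0.16, and scaled to total repeat element counts 0.54, so its size rests on the scaling.

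The other families moved little under TMM. B3 had 388 CPM in the lowest Tesa-inj library, 985 CPM at the median and 1187 CPM in the highest, against 572, 915 and 1128 CPM in Vehicle-inj. The lowest values of B3 were in Tesa-inj libraries 11 and 1, which were below every Vehicle-inj library. Its highest values were in Tesa-inj libraries 2 and 12, above every Vehicle-inj library. The log2 fold change of B3 was -0.11 (SE 0.27), and it was 0.01 without Tesa-inj library 1 and 0.02 without Tesa-inj library 11. B1_Mus1 had 137, 317 and 454 CPM as lowest, median and highest value in Tesa-inj and 216, 353 and 419 CPM in Vehicle-inj. Its log2 fold change was -0.17 (SE 0.27), and it ran from -0.32 (without Tesa-inj library 2) to -0.04 (without Tesa-inj library 11). B1_Mm (-0.22), B1_Mus2 (-0.21), B1_Mur3 (-0.20) and PB1 (-0.19) had the smallest p-values after B4A, all with an unadjusted edgeR p over 0.4. With a library left out, B1_Mm ran from -0.35 to -0.10 and B1_Mus2 from -0.35 to -0.08. B1_Mur3 then ran from -0.33 to -0.08 and PB1 from -0.30 to -0.06. These 4 B1 families also had their lowest levels in Tesa-inj libraries 1 and 11, below every Vehicle-inj library, while B1_Mus2 and B1_Mur3 each had 1 Tesa-inj library above every Vehicle-inj library. B1_Mm, for example, had 48.5 CPM in Tesa-inj library 1, 118 CPM at the Tesa-inj median and 154 CPM in Tesa-inj library 2, against 79.0, 131 and 166 CPM in Vehicle-inj.

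ID4, the largest ID family at 46 days, had 27.2 CPM in the lowest Tesa-inj library, 60.4 CPM at the median and 88.1 CPM in the highest, against 38.5, 64.9 and 73.5 CPM in Vehicle-inj. MIRb had 86.5, 208 and 262 CPM in Tesa-inj and 131, 206 and 259 CPM in Vehicle-inj. In both families 2 Tesa-inj libraries were below every Vehicle-inj library and 1 was above all of them. The log2 fold changes were -0.10 (SE 0.26) for ID4 and -0.15 (SE 0.25) for MIRb, and ID4 was at 0.01 without Tesa-inj library 1 or 11. MIRb ran from -0.26 (without Tesa-inj library 2) to -0.03 (without Tesa-inj library 1).

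Counted together, 30 of 32 families had a log2 fold change below 0 at 46 days. So did 531 of 567 repeat elements and 1548 of 2866 features tested, so the SINE share is near that of all repeat elements. The median was -0.10 for the SINE families, -0.25 over all repeat elements tested and -0.03 over all features tested. The SINE families above 0 were B4A and ID2 (0.06), named here after their values were seen. The median of the SINE families was 0.01 without Tesa-inj library 1 and 0.02 without Tesa-inj library 11, so single libraries turn its sign. It was -0.05 and -0.06 without Vehicle-inj libraries 7 and 9, and -0.17 and -0.19 without Vehicle-inj libraries 6 and 14. It was -0.21, -0.18 and -0.22 without Tesa-inj libraries 2, 4 and 12. Library totals in place of TMM moved the median of all features to -1.09 and that of the SINE families to -1.64, and total repeat element counts moved them to -0.70 and -1.16. TMM over repeat elements alone moved them to 0.48 and 0.16. Then no SINE family was below 0, where 265 of 567 repeat elements and 375 of 2866 features were. These scalings moved all features together, so the sign of the SINE median says little by itself. It was below the median of all features in each of these scalings, but above it without Tesa-inj library 1 or 11, where the median of all features was -0.03.

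**Figure D2:**
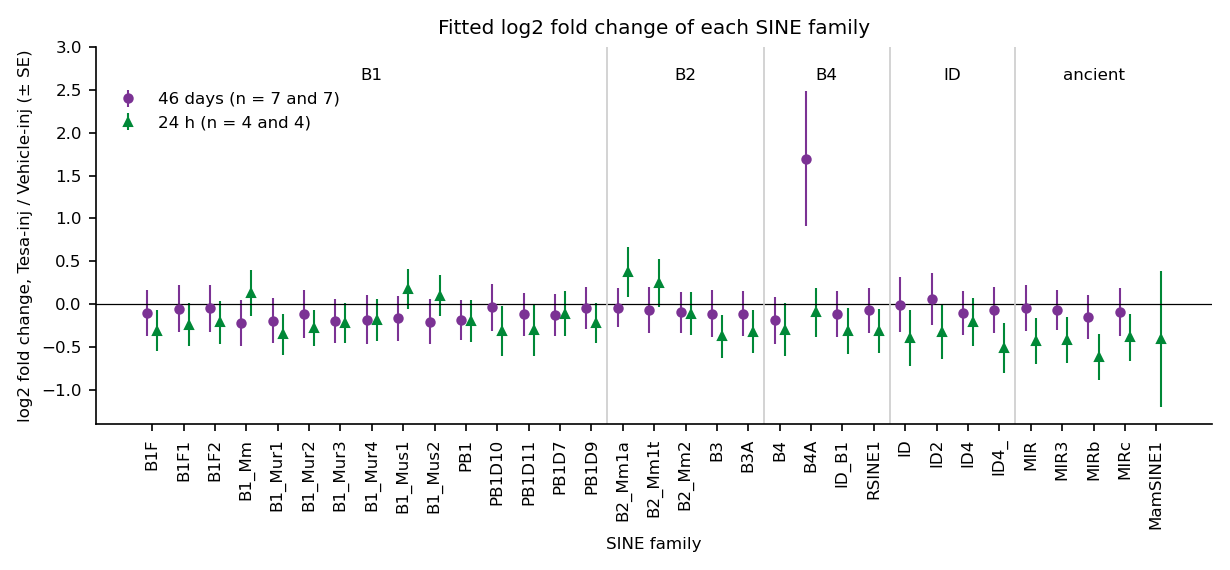
Log2 fold change of Tesa-inj over Vehicle-inj (points) with its standard error (bars) for each SINE family at 46 days (n = 7 and 7) and 24 h (n = 4 and 4), from edgeR with TMM over all features. B4A at 46 days stands at 1.70 with an SE of 0.79, and TMM over repeat elements alone moves the other families at 46 days above 0 along with the median of all features (0.48).

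A measure free of TMM is each family's share of repeat element counts, compared by a two-sided exact permutation test with Benjamini-Hochberg adjustment over all 584 elements. B3 took 0.252% of element counts in the lowest Tesa-inj library, 0.543% at the median and 1.12% in the highest, against 0.443%, 0.981% and 2.42% in Vehicle-inj. B1_Mur4, the family with the lowest ratio of Tesa-inj to Vehicle-inj, took 0.0426%, 0.106% and 0.203% in Tesa-inj and 0.0907%, 0.214% and 0.486% in Vehicle-inj. For B1_Mur4, 2 Tesa-inj libraries lay below every Vehicle-inj library and 5 Vehicle-inj libraries above every Tesa-inj library. Its means were 0.112% ± 0.0559 and 0.270% ± 0.131, with an exact permutation p adjusted by Benjamini-Hochberg of 0.0293.

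In this measure 30 of 32 SINE families passed an adjusted exact permutation p of 0.05, all of them lower in Tesa-inj, where 88.4% of all repeat elements passed and 88.2% passed as lower. The share of SINE families is near that of all elements. The ratio of means ran only from 0.417 to 0.489 over these 30 families. The exceptions were B2_Mm1a, lower at an adjusted exact permutation p of 0.0579, and B4A, the SINE family that was higher in Tesa-inj, at the same p. B4A took 39.3% ± 8.85 (SD) of element counts for Tesa-inj and 26.9% ± 12.2 (SD) in Vehicle-inj.

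B4A, L1Md_F2 and L1Md_F3, the 3 most abundant elements, were then left out of the denominator. In this setting 0 of 31 SINE families passed the exact permutation test, 0 had an unadjusted p under 0.05 and the smallest adjusted p was 0.429. Of all 581 elements in this setting, 0 passed and 78 (13.4%) had an unadjusted exact permutation p under 0.05. The ratio of means of the SINE families then ran from 0.949 to 1.16. In this test the SINE families thus passed with these 3 elements in the sum and not without them. As a share of the counts outside the 5 most abundant features, given above, the families other than B4A still had a lower mean in Tesa-inj, which was not tested. The count of 30 also rests on single libraries. It was 0 without Tesa-inj library 1, 2, 5 or 12 and without Vehicle-inj library 10 or 14, and 0 among libraries 1 to 10 alone, where 0% of all repeat elements passed in each case. In these runs the smallest adjusted exact permutation p of a SINE family was between 0.0502 and 0.0648. In them 25 to 28 families still had an unadjusted p under 0.05, so the calls were lost near the threshold. With all libraries in, 30 of 32 families and 525 of 584 repeat elements (89.9%) had an unadjusted exact permutation p under 0.05. For all elements this number was not taken in the runs without libraries. The count of SINE families passing after adjustment was 9 without Tesa-inj library 4 and 21 without Vehicle-inj library 7. It was 32, with B4A as higher, without Tesa-inj library 11 or Vehicle-inj library 6. Of all repeat elements, 52.6%, 67.6%, 98.1% and 95.9% passed without these libraries, in the same order, so the count of SINE families moved with that of all elements.

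The 24 h libraries address whether SINE RNA differs soon after the last injection. SINE families took 0.543%, 0.801%, 0.759% and 1.30% of all counts in Tesa-inj libraries 1, 3, 5 and 7. In Vehicle-inj libraries 2, 4, 6 and 8 they took 0.685%, 0.805%, 0.760% and 0.902%. Tesa-inj libraries held both the lowest and the highest value, and the other libraries lay close together. The means were 0.851% ± 0.321 (SD, n = 4) and 0.788% ± 0.0907 (SD, n = 4), a difference of 0.0632 points that is within the spread. The difference was -0.0871 points without Tesa-inj library 7, 0.0289 without Vehicle-inj library 2, 0.166 without Tesa-inj library 1 and 0.101 without Vehicle-inj library 8. Of repeat element counts, SINE families took 5.29%, 6.46%, 7.69% and 12.3% in the Tesa-inj libraries and 5.83%, 6.64%, 8.03% and 8.91% in the Vehicle-inj libraries, in the same order. These also overlapped, with means of 7.94% ± 3.09 (SD, n = 4) and 7.35% ± 1.38 (SD, n = 4), and Tesa-inj library 7 was again the highest. Without it the difference turned from 0.591 to -0.872 points.

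B4A held a smaller part of the SINE counts in these polyA-selected libraries than at 46 days. It took 9.77%, 11.0%, 9.05% and 8.10% in Tesa-inj libraries 1, 3, 5 and 7 and 8.75%, 11.0%, 7.66% and 8.38% in Vehicle-inj libraries 2, 4, 6 and 8. With counts pooled over the 8 libraries B4A was still the largest single family, with 0.0766% of all counts, at rank 58 of all features. It was not the largest in Tesa-inj libraries 5 and 7, where B2_Mm1a was, in Vehicle-inj library 6, where B2_Mm2 was, or in Vehicle-inj library 8, where B3 was. In the pooled counts B3 followed with 8.09% of SINE counts, then RSINE1 with 7.24%, B2_Mm2 with 7.14%, ID_B1 with 6.91%, B2_Mm1a with 6.61% and B1_Mus1 with 6.30%. Means of group shares in Tesa-inj and Vehicle-inj were 35.5% and 34.3% for B1, 31.1% and 29.4% for B2, 26.6% and 28.0% for B4, 2.00% and 2.30% for ID and 4.78% and 6.05% for the ancient families. Without Vehicle-inj library 4 the difference turned from 1.67 to -0.26 points for B2 and from -1.37 to 0.37 points for B4.

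The ancient families, mostly MIR, took 4.37%, 6.24%, 4.26% and 4.26% of SINE counts in Tesa-inj libraries 1, 3, 5 and 7. In Vehicle-inj libraries 2, 4, 6 and 8 they took 5.39%, 6.71%, 5.46% and 6.64%. So 3 Tesa-inj libraries lay below every Vehicle-inj library, and Tesa-inj library 3 lay among the Vehicle-inj libraries. The 95% Wilson intervals were 4.25% to 4.50% for Tesa-inj library 1 and 5.26% to 5.53% for Vehicle-inj library 2. These intervals cover counting error only and not the spread between libraries, on which a difference between the treatments rests. The B1 group took 35.8%, 34.4%, 36.4% and 35.5% in Tesa-inj and 35.0%, 33.7%, 34.2% and 34.2% in Vehicle-inj, which overlap through Tesa-inj library 3. With B4A left out, B1 families took 38.6% to 40.0% in Tesa-inj and 37.1% to 38.3% in Vehicle-inj, and these ranges did not overlap. This was 1 of 5 groups and was not tested.

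The composition of SINE counts varied more between the 24 h libraries than between the 46-day libraries, whose median coefficient of variation is given above. At 24 h that median was 19.0% over the same 31 families, and the highest was 32.7% for B2_Mm1a, a young B2 family with many near-identical copies. B2_Mm1a took 7.72%, 5.57%, 10.3% and 9.47% of SINE counts outside B4A in Tesa-inj libraries 1, 3, 5 and 7. In Vehicle-inj libraries 2, 4, 6 and 8 it took 6.88%, 3.36%, 7.80% and 5.10%. The 2 highest values are in Tesa-inj and the 2 lowest in Vehicle-inj, and the ranges overlap. The 5 families B1_Mm, B1_Mus1, B1_Mus2, B2_Mm1a and B2_Mm1t, chosen after their values were seen, together took 30.6%, 21.2%, 35.5% and 32.3% in Tesa-inj and 27.8%, 15.0%, 28.2% and 21.5% in Vehicle-inj. At 46 days the same 5 families took 11.4% to 13.5% over the 14 libraries.

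**Figure D3:**
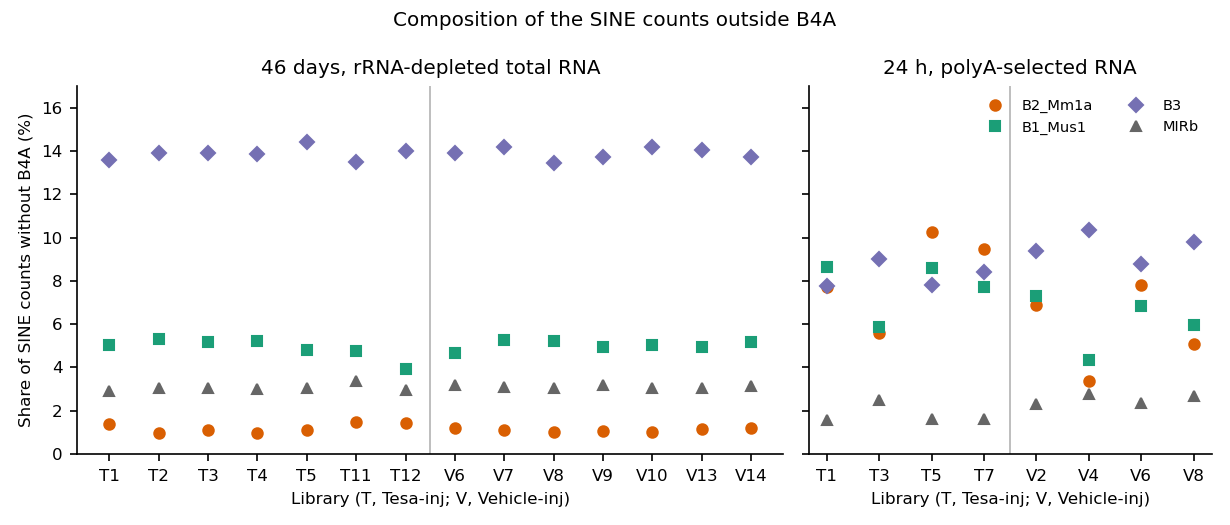
Share of the SINE counts outside B4A (percent) on B2_Mm1a, B1_Mus1, B3 and MIRb in each library of Tesa-inj (T) and Vehicle-inj (V). B3 runs from 13.4% to 14.4% at 46 days and from 7.78% to 10.4% at 24 h, and B2_Mm1a from 0.954% to 1.50% at 46 days and from 3.36% to 10.3% at 24 h.

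In the edgeR quasi-likelihood test at 24 h, fitted on 13752 features, 0 of 33 SINE families passed an adjusted p of 0.05, where 0% of all features passed. At an unadjusted p under 0.05 there was 1 family, MIRb, against 2.71% of all features and 8.12% of repeat elements. The exact test of edgeR, DESeq2 and limma voom also passed 0 families and 0 of all features, each with 1 family at an unadjusted p under 0.05. In the same order, 377, 492 and 1022 of 13752 features and 39, 53 and 71 of 542 repeat elements reached that unadjusted p. The edgeR count of families was 5, all lower, without Tesa-inj library 3, where 72 of 521 repeat elements and 567 of 13215 features reached that p. It was 0 without Tesa-inj library 1, 5 or 7 or Vehicle-inj library 2, 4 or 8. In those runs 21 to 38 repeat elements and 251 to 410 features reached it. The count of families was also 0 with library totals or total repeat element counts, where 1 of 542 repeat elements reached that p in each. With TMM over repeat elements alone it was 1, B2_Mm1a as higher, where 6 repeat elements did. With 4 libraries a group, missing the threshold does not show that a level is the same in Tesa-inj and Vehicle-inj. MIRb had 94.7, 187, 104 and 125 CPM in Tesa-inj libraries 1, 3, 5 and 7 and 188, 246, 154 and 194 CPM in Vehicle-inj libraries 2, 4, 6 and 8. Of the Tesa-inj libraries, 3 were below every Vehicle-inj library, and library 3 was within their range. The log2 fold change of MIRb was -0.61 (SE 0.27), with an unadjusted edgeR p of 0.0451 and a Benjamini-Hochberg adjusted p of 1.00. MIRb was at -0.30 with TMM over repeat elements alone, -0.37 with library totals and -0.39 with total repeat element counts, where the medians of all features were 0.30, 0.19 and 0.18.

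MIR, another ancient family, had 98.2, 164, 91.2 and 108 CPM in Tesa-inj libraries 1, 3, 5 and 7 and 134, 209, 120 and 158 CPM in Vehicle-inj libraries 2, 4, 6 and 8. MIR3 had 35.0, 65.1, 41.5 and 48.9 CPM in Tesa-inj and 63.6, 83.7, 44.6 and 62.7 CPM in Vehicle-inj. ID4_, an ID family, had 44.7, 82.4, 40.6 and 58.6 CPM in Tesa-inj and 73.4, 112, 58.6 and 78.7 CPM in Vehicle-inj. In all 3 families Vehicle-inj library 4 was the highest of the 8 libraries and Tesa-inj library 3 the highest of its group, and the groups overlapped. The log2 fold changes were -0.43 (SE 0.27) for MIR, -0.42 (SE 0.27) for MIR3 and -0.51 (SE 0.29) for ID4_. Without Vehicle-inj library 4 they were -0.23, -0.23 and -0.29, and without Tesa-inj library 3 they were -0.65, -0.60 and -0.75.

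B4A, B3 and ID4, the families with the most pooled counts in their groups, showed smaller differences at 24 h. B4A had 646, 929, 636 and 671 CPM in Tesa-inj libraries 1, 3, 5 and 7 and 777, 1103, 547 and 658 CPM in Vehicle-inj libraries 2, 4, 6 and 8. All 4 Tesa-inj values lay inside the Vehicle-inj range. The log2 fold change of B4A was -0.10 (SE 0.28), 0.15 without Vehicle-inj library 4 and 0.16 with library totals. B3 had 464, 681, 500 and 638 CPM in Tesa-inj and 760, 920, 578 and 705 CPM in Vehicle-inj, so 2 Tesa-inj libraries were below all of Vehicle-inj. Its log2 fold change was -0.38 (SE 0.25), and -0.23 without Vehicle-inj library 4. ID4 had 62.1, 93.0, 55.5 and 64.9 CPM in Tesa-inj and 52.9, 115, 68.5 and 81.7 CPM in Vehicle-inj. The Tesa-inj values of ID4 lay inside the Vehicle-inj range, at a log2 fold change of -0.21 (SE 0.28) that was 0.05 without Vehicle-inj library 4.

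B1_Mus1, a young B1 family, had 515, 445, 550 and 586 CPM in Tesa-inj libraries 1, 3, 5 and 7 and 590, 386, 451 and 430 CPM in Vehicle-inj libraries 2, 4, 6 and 8. All Tesa-inj values of B1_Mus1 lay inside the range of Vehicle-inj, whose library 2 was the highest. Its log2 fold change was 0.18 (SE 0.23), and 0.33 without Vehicle-inj library 2. B2_Mm1a had 461, 421, 656 and 720 CPM in Tesa-inj and 558, 298, 514 and 367 CPM in Vehicle-inj, so Tesa-inj libraries 5 and 7 were above all of Vehicle-inj. For B2_Mm1a the log2 fold change was 0.38 (SE 0.29), and 0.24 without Tesa-inj library 7.

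Counted together, 28 of 33 families were below 0 at 24 h, beside 430 of 542 repeat elements and 7183 of 13752 features. The median log2 fold change was -0.30 for the SINE families, -0.32 over the repeat elements and -0.02 over all features. The 5 SINE families above 0 were B2_Mm1a, B2_Mm1t (0.25), B1_Mus1, B1_Mm (0.13) and B1_Mus2 (0.10). The median of the SINE families was -0.06 without Vehicle-inj library 4, -0.18 without Tesa-inj library 5, -0.19 without Tesa-inj library 1 and -0.42 without Tesa-inj library 3. With library totals the median of all features moved to 0.19 and that of the SINE families to -0.03. TMM over repeat elements alone moved them to 0.30 and 0.02. Then 11 of 33 families, 272 of 542 repeat elements and 3890 of 13752 features were below 0. Here too all features moved together, and the SINE median was below that of all features in each scaling. In shares of repeat element counts 0 of 33 families passed the exact permutation test at 24 h, where 0% of all elements passed. At an unadjusted exact permutation p under 0.05 there were 0 families, against 0.631% of all 634 elements. With 4 libraries a group this test has 70 arrangements, which limits how small its p can be. After adjustment, a family could pass only if a large part of the 634 elements also reached the smallest possible p. That no family passed therefore does not show that the shares were the same in Tesa-inj and Vehicle-inj.

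The 2 times were compared in an edgeR model of 2680 features with the treatment effect at each time, to ask whether the effect on a family differs between them. No SINE family passed (0 of 32, with 0% of all features passing), and 0 had an unadjusted p under 0.05, against 4.74% of all features. Limma voom also passed 0 SINE families, with 1 at an unadjusted p under 0.05. Of all 2680 features limma voom passed 9, and 232 had an unadjusted p under 0.05. The families with the smallest p-values were B2_Mm1a, B1_Mus1, B1_Mm, B1_Mus2 and B2_Mm1t, which are the same 5 that were above 0 at 24 h. In this model the effect at 46 days minus that at 24 h was -0.69 (SE 0.35) for B2_Mm1a, -0.63 (SE 0.35) for B1_Mus1, -0.65 (SE 0.37) for B1_Mm, -0.59 (SE 0.35) for B1_Mus2 and -0.60 (SE 0.38) for B2_Mm1t. For B2_Mm1a the unadjusted edgeR p was 0.0604 and the Benjamini-Hochberg adjusted p 0.994. With TMM over repeat elements alone, 9 of 32 families were below 0, these 5 among them, at -0.42 for B2_Mm1a. In that run 236 of 507 repeat elements and 503 of 2680 features were below 0. Library totals put 32 of 32 families and 2592 of 2680 features below 0, so the sign of single families says nothing there.

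Side by side, the log2 fold changes at 46 days and 24 h were -0.04 and 0.38 for B2_Mm1a, -0.07 and 0.25 for B2_Mm1t, -0.17 and 0.18 for B1_Mus1, -0.22 and 0.13 for B1_Mm and -0.21 and 0.10 for B1_Mus2. They were -0.15 and -0.61 for MIRb, -0.11 and -0.38 for B3, -0.10 and -0.21 for ID4 and 1.70 and -0.10 for B4A. The B4A difference between the times was 1.51 in the joint model and was not past an unadjusted edgeR p of 0.05.

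Among Vehicle-inj libraries alone, 10 of 32 SINE families differed between 46 days and 24 h at an adjusted p of 0.05 in the same edgeR model, where 65% of all features and 84.2% of repeat elements did. B4A was higher at 46 days by 5.79 (SE 0.99) on the log2 scale, with a Benjamini-Hochberg adjusted p of 2.51e-05. B2_Mm1a was lower, at -1.97 (SE 0.24) with an adjusted p of 2.93e-07, and B2_Mm1t was lower, at -0.97 (SE 0.26) with an adjusted p of 0.00264. B4 (1.02, SE 0.30) and B3A (0.97, SE 0.28) were higher, as were B3, MIRb, MIR, B1_Mur1 and B1_Mur3. The count of families was 6 without Vehicle-inj library 7 or 9 of 46 days or library 2, 6 or 8 of 24 h. In these runs 1592 to 1704 of the 2680 features passed. The count of families was 13 without Vehicle-inj library 4 of 24 h, where 1677 features passed. It was 1 with library totals, 17 with limma voom and 32 with TMM over repeat elements alone, where 385, 2083 and 1922 of the 2680 features passed. Under the last, 31 of the 32 called families were lower at 46 days and B4A was higher, against 2 lower of the 10 called with TMM over all features. The scalings moved all features as well. The median of all features was -0.04 with TMM over all features, 0.70 with library totals and -1.67 with TMM over repeat elements alone, beside SINE medians of 0.31, 0.87 and -1.39.

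RNAs and proteins that make, bind or silence SINE transcripts were read from the same fits. At 46 days only 3 of 54 listed genes were in the table, and none of the 24 genes of RNA polymerase III and its factors. Rn7s1, the 7SL RNA from which B1 descends, had 10413 CPM in the lowest Tesa-inj library, 12035 CPM at the median and 25049 CPM in the highest, against 8812, 11149 and 14490 CPM in Vehicle-inj. Tesa-inj library 12 stood apart in Rn7s1, and the others overlapped. Rn7s1 had a log2 fold change of 0.24 (SE 0.27), and it was -0.0047 without Tesa-inj library 12. Rn7sk, the 7SK RNA and another product of RNA polymerase III, had 156, 182 and 1818 CPM in Tesa-inj and 106, 199 and 248 CPM in Vehicle-inj. Its highest value was again in Tesa-inj library 12. The log2 fold change of Rn7sk was 1.17 (SE 0.54), with an unadjusted edgeR p of 0.0448 and a Benjamini-Hochberg adjusted p of 0.896, and it was 0.03 without Tesa-inj library 12 and 0.07 in DESeq2. Scaled to library totals, Rn7s1 was at -1.07 and Rn7sk at -0.86. Chd4, the most abundant silencing gene, had a log2 fold change of -0.14 (SE 0.20), which was 0.43 with TMM over repeat elements alone.

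At 24 h, 23 of the 24 genes of RNA polymerase III and its factors were tested, 15 higher and 8 lower in Tesa-inj. Their most abundant member Polr1d, a subunit shared with RNA polymerase I, had 55.8, 26.0, 52.9 and 41.4 CPM in Tesa-inj libraries 1, 3, 5 and 7 and 32.1, 24.8, 47.3 and 38.9 CPM in Vehicle-inj libraries 2, 4, 6 and 8. The groups overlapped, with a log2 fold change of 0.30 (SE 0.29), which was 0.18 without Tesa-inj library 1 or Vehicle-inj library 4, 0.48 without Tesa-inj library 3 and 0.46 without Vehicle-inj library 6. Polr1d was at 0.63 with TMM over repeat elements alone, 0.46 with library totals, 0.45 with total repeat element counts and 0.18 with limma voom. Of the RNAs and proteins related to SINEs, 15 were tested, 7 higher and 8 lower, and of silencing genes 8, with 4 higher and 4 lower. None of these 46 genes passed in edgeR, where 0% of all features passed. At an unadjusted edgeR p under 0.05 there were 0, against 2.71% of all features. Rn7s1 ran from 8720 to 21494 CPM in Tesa-inj and from 8197 to 22769 CPM in Vehicle-inj, at a log2 fold change of 0.23 (SE 0.47). With a library left out Rn7s1 ran from 0.03 (without Vehicle-inj library 8) to 0.54 (without Vehicle-inj library 2), and it was 0.09 without Tesa-inj library 3 or Vehicle-inj library 6 and 0.44 without Tesa-inj library 7. It was 0.58 with TMM over repeat elements alone, 0.47 with total repeat element counts and 0.44 with library totals or limma voom. Chd4 had 261, 213, 205 and 170 CPM in Tesa-inj and 384, 292, 213 and 217 CPM in Vehicle-inj, at -0.38 (SE 0.26). Chd4 was at -0.17 without Vehicle-inj library 2 and at -0.03 with TMM over repeat elements alone.

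Bc1, the gene of the BC1 RNA related to the ID families, was in the 24 h table only. It had 16.9, 8.43, 17.9 and 18.7 CPM in Tesa-inj libraries 1, 3, 5 and 7 and 17.2, 12.9, 11.1 and 5.60 CPM in Vehicle-inj libraries 2, 4, 6 and 8. The 2 highest values were in Tesa-inj libraries 5 and 7, and the groups overlapped. For Bc1 the log2 fold change was 0.41 (SE 0.38), while ID4 and ID4_ were below 0 in the same fit. It was 0.66 without Vehicle-inj library 2, 0.61 without Tesa-inj library 3 and 0.17 without Vehicle-inj library 8. With limma voom Bc1 was at 0.86, with an unadjusted p of 0.0443 and an adjusted p of 0.667. Library totals put it at 0.75, TMM over repeat elements alone at 0.76 and total repeat element counts at 0.80, so its size rests on the method and on single libraries. Its first 50 transcribed bases, from RefSeq for GRCm38.p6 at chr7:144914470-144914519 on the + strand, hold a match to the A box, which is a part of the internal promoter of SINEs of tRNA origin. Capitals mark the match, at bases 14 to 24.
Bc1: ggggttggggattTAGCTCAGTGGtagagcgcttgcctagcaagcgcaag
On either strand, 408 of 32851 promoter windows of 300 bases (1.24%) hold this A box motif, and a match is a description and not evidence of use.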

How the data were processed

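The deposited sperm values are estimated counts per gene or repeat family. The authors trimmed reads and quantified them with Salmon 0.11.2 on transcripts, piRNA precursors and repeat copies concatenated by family, for 14 libraries at 46 days and 8 at 24 h. Counts were made whole by rounding, and features exceeding 20 counts were tested if they did so in at least 6 libraries at 46 days or 4 at 24 h. Scaling was by TMM over all features. In R 4.3.3, edgeR 4.0.16 gave quasi-likelihood tests with Benjamini-Hochberg adjustment at 0.05. The SE of an edgeR log2 fold change is its absolute value divided by the square root of the F statistic of that test. Shares of counts need no filter. Those of single families were compared by exact permutation with Python 3.11.15, numpy 2.4.6 and pandas 2.3.3. Summed shares got no test.

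Other settings were DESeq2 1.42.0, the exact test in edgeR, limma 3.58.1 voom with quality weights, other scalings and filters, a term for libraries 11 to 14 and leaving out each library. Sums without B4A, the denominator without the 3 most abundant elements and the alternatives of the Vehicle-inj comparison were chosen after seeing the data. The same holds for the other alternatives of the exact permutation test and for the library omissions in the model of both times. The tests were tested on simulated data.

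Named are the most abundant family of each group at each time, the 5 families with the smallest p in each comparison, the most abundant gene of each list, listed genes with an unadjusted p under 0.05, and Bc1 and Rn7s1. Families named beyond this, such as B1_Mur4, RSINE1, B2_Mm2, ID_B1 and ID, were picked with their values in view. The members and lists were chosen with earlier results of these data known. Serum libraries were not used.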

Additional observations from a re-analysis of the deposited data

Results flagged for a closer look

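Of 86 groups of libraries checked for a value far from the others, 6 held one, and chance gives this in about 1 of 20 groups. In each case the highest library stood apart from the nearest other by a large part of the group's range. At 46 days the SINE share of all counts was 6.16% in Vehicle-inj library 7, and the SINE share without B4A was 1.39% in Tesa-inj library 11. In Tesa-inj library 12 of the same time, Rn7s1 stood at 25049 CPM and Rn7sk at 1818 CPM. At 24 h Tesa-inj library 3 held the highest ancient share of SINE counts of its group, 6.24%, and the highest level of B4A, 929 CPM. What sets these libraries apart was not tested. No SINE family passed the edgeR test of a difference in effect between the times.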

How the results depend on the processing

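No paired analysis was possible because Tesa-inj and Vehicle-inj share no replicate number at either time, and the numbers that libraries of 46 days and 24 h share are given in separately named series in the labels. No SINE family passed the edgeR test at 46 days, at 24 h or for their difference under any alternative run, library omissions included. Scaled to library totals, the 46-day median log2 fold change of the SINE families was -1.64, Rn7s1 was at -1.07 and Rn7sk at -0.86. At 24 h B4A was then at 0.16 and ID4 at 0.0027, and 1 family differed between Vehicle-inj at 46 days and 24 h. With total repeat element counts, the 46-day median was -1.16, Rn7s1 -0.69 and Rn7sk -0.48, and at 24 h B4A was at 0.16 and Rn7sk at 0.0039. With TMM over repeat elements alone, the 46-day values were 0.084 for B1_Mus1, 0.13 for B3, 0.18 for ID4, 0.11 for MIRb, 0.031 for B1_Mm, 0.13 for PB1, 0.049 for B1_Mus2, 0.065 for B1_Mur3 and 0.43 for Chd4. At 24 h the median was then 0.018, B4A 0.23, ID4 0.11 and Rn7sk 0.013, and in Vehicle-inj 32 families differed, with B3A at -0.72 and B4 at -0.66. With limma voom 17 families differed in Vehicle-inj, and B4A at 24 h was at 0.017. These scalings moved the median of all features as well. Among libraries 11 to 14 alone, the difference in the SINE share of all counts at 46 days was 1.16 points. With B4A left out, the 46-day difference between Tesa-inj and Vehicle-inj was -5.66 points for the SINE share of element counts, -0.478 for B1, 0.354 for B2, -0.129 for B4, 0.0973 for ID and 0.156 for the ancient group. The exact permutation test of shares of element counts passed 0 families among libraries 1 to 10 and 0 with the 3 most abundant elements left out of the denominator. Leaving out a library gave 0 to 32 families in that test and 6 to 13 families in the Vehicle-inj comparison. It gave -0.22 to 0.016 for B3, -0.28 to 0.014 for ID4 and -0.0047 to 0.31 for Rn7s1 at 46 days. At 24 h it gave -0.24 to 0.15 for B4A, -0.39 to 0.048 for ID4 and -0.72 to 0.38 for Rn7sk. Of the other values of single families and RNAs, 484 with a library left out and 269 under another alternative kept their direction and their side of the threshold. Of summary values, 252 and 70 were counts within 1.5 times the reported count or untested values that moved by less than 1 SD between libraries. Some of these changed sign, namely the 46-day median (0.013 and 0.018 without Tesa-inj library 1 or 11, 0.16 with TMM over repeat elements alone) and, at 24 h, the differences in the SINE share of all counts (-0.087 without Tesa-inj library 7, -0.019 and -0.014 outside the 5 most abundant features without and with B4A), in the SINE share of element counts (-0.87 without Tesa-inj library 7) and in the B2 (-0.26) and B4 shares (0.37, both without Vehicle-inj library 4). With library totals, 4 called values of the Vehicle-inj comparison were no longer past it. Depth limits Tesa-inj library 2 most, with 158852 counts outside the 5 most abundant features.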
